A study of Homo sapiens with 6 samples.

Results

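Cullin-RING ubiquitin ligases (CRLs) are assembled from a cullin scaffold, a RING protein and an exchangeable receptor, and 172 genes of this family were followed on arrays of MDA-MB-468 cells after knockdown of the long non-coding RNA NRAD1. The genes were chosen by symbol from the platform annotation (cullins, SKP1, F-box proteins, DCAF proteins, DET1, KLHL and KBTBD proteins, KEAP1, SPOP, SOCS and ASB proteins, BTRC and subunits of the COP9 signalosome), and COP1 was added because its transcript cluster is named only in a supplementary table of the study, under the older symbol RFWD2. That table lists genes that differed between the same arrays, so COP1 was named through its change, whereas other ligase genes without a symbol could not enter in this way if they were not on that list. Its values are therefore a description and not independent evidence, and the main counts are also given without it. They are 172 of 14885 named genes on an array of 53617 transcript clusters, or probe sets, of which 16098 carry a gene symbol in the annotation. Of these, 167 are protein-coding genes and 5 are pseudogenes or non-coding RNAs whose symbols match the rule. Another 3 antisense names were left out, and DDB1, DDB2, RBX1, SKP2, VHL and FBXW7 have no named transcript cluster here.

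MDA-MB-468 cells, an established line from a triple-negative breast cancer of the basal-like kind, received either control GapmeR or GapmeR#4, a modified antisense oligonucleotide directed at NRAD1, at 15 nM for 48 h. There were 3 control GapmeR samples and 3 GapmeR#4 samples, each on 1 Affymetrix Human Gene 2.0 ST array, and both groups had the same transfection reagent. Both groups rest on 1 cell line and 1 targeting oligonucleotide, so that loss of NRAD1 and other effects of this oligonucleotide cannot be told apart. The labels call the samples biological replicates without saying how the cultures were separated, so a p-value here reflects no more than the spread among the 6 samples.

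In a CRL the cullin holds the RING protein, which recruits the ubiquitin-conjugating enzyme, at one end and a receptor for the substrate at the other. CUL1 reaches F-box proteins through SKP1, CUL4A and CUL4B reach DCAF proteins through DDB1, CUL3 binds BTB proteins directly, and CUL2 and CUL5 reach their receptors through elongins. Attachment of NEDD8 to the cullin switches the ligase on, and the COP9 signalosome removes it again. COP1 is both a RING ligase of its own and, with DET1, a receptor for CUL4 ligases that mark transcription factors such as JUN and the ETS proteins ETV1, ETV4 and ETV5 for degradation.

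On the 6 arrays the median log2 signal lay between 3.96 and 4.01. Over all transcript clusters, Pearson's r was 0.988 to 0.990 within the controls, 0.988 to 0.989 within GapmeR#4, and 0.982 to 0.985 for arrays of different groups. The targeted NRAD1 had log2 signals of 3.43, 3.46 and 4.01 with control GapmeR and of 2.96, 2.99 and 2.90 with GapmeR#4, a change of -0.69 that did not pass (limma, adjusted p = 0.0908), and it was below the array median on 5 of 6 arrays. The epithelial markers EPCAM and KRT18 and the receptor EGFR had log2 signals of at least 11.4, 9.60 and 10.1 on every array. The progesterone receptor gene PGR and the endothelial markers PECAM1 and VWF were below the array median on all 6 arrays, and the estrogen receptor gene ESR1 on 4. RNA was measured in bulk, so fewer cells of a type and less RNA per cell cannot be told apart, and protein was not measured.

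Each transcript cluster was tested with limma, and changes are the mean log2 signal with GapmeR#4 minus that with control GapmeR. At an adjusted p under 0.05 over all transcript clusters, 8 CRL genes fell (COP1, DCAF11, DET1, FBXO36, FBXO43, FBXL4, ASB13 and FBXW8) and 3 rose (CUL4B, FBXO5 and SOCS2). That is 4.65% of the members lower and 1.74% higher, where 2.57% of all named genes were lower and 1.49% higher, and where 1.42% and 1.15% of all transcript clusters were. Without COP1, 7 of 171 members fell, or 4.09%. Among transcript clusters brighter than the median one, where fewer are tested, 6.52% of 138 members were lower and 5.07% higher, against 7.44% and 5.33% of named genes, so that the larger share of lower members was not seen there. At an unadjusted p under 0.05 there were 25 lower and 22 higher members, or 14.5% and 12.8%, near the 12.6% and 10.5% of named genes. In the branch of CUL4 receptors 3 of 20 genes fell, or 2 of 19 without COP1, and none of the 47 BTB proteins and 9 COP9 signalosome subunits passed. No test of these shares was made.

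**Figure D1:**
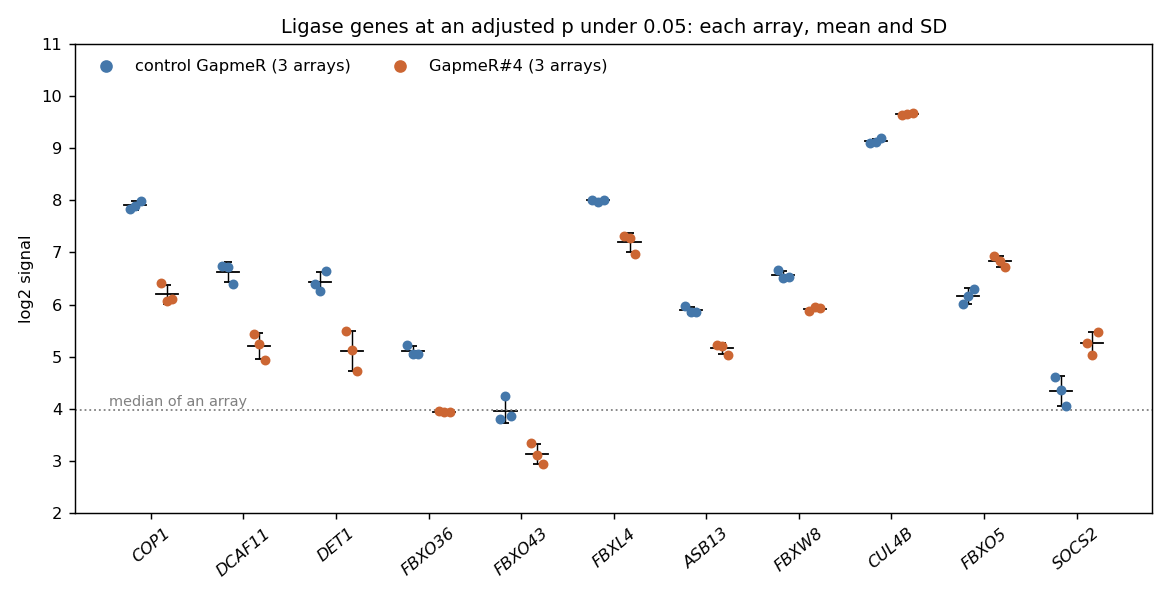
Log2 signal of the 11 CRL genes at an adjusted p under 0.05, ordered by their change. Each point is 1 array, the bars give the mean and SD of 3 arrays, and the dotted line is the middle of the array medians. For all 11 genes the control GapmeR and GapmeR#4 arrays do not overlap. FBXO43 lies under the dotted line on 5 arrays, and FBXO36 lies just under it on the 3 GapmeR#4 arrays.

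The groups did not overlap for 71 members, or 41.3%, against 32.3% of all named genes. Of these 71 members, 38 were lower and 33 higher with GapmeR#4. The shares were not matched for signal. Below the array median on all 6 arrays were 32 of 172 members and 3941 of 14885 named genes. The median change of the members was -0.05, against 0.00251 for all named genes, with 92 members at a negative and 80 at a positive change. The fold cutoff of the study was also applied, a change over 1.7-fold at an unadjusted p under 0.05 (from limma). There 6 members were lower (COP1, DCAF11, DET1, FBXO36, FBXL4 and FBXO43) and 2 higher (SOCS2 and FBXW10). Of named genes, 2.75% passed this cutoff in either direction. COP1 was named through the study's list of genes that differed between these same arrays, so its pass here was fixed in advance. FBXW10, named after its values were seen, was below the array median on all 6 arrays and at an adjusted p of 0.0828.

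**Figure D2:**
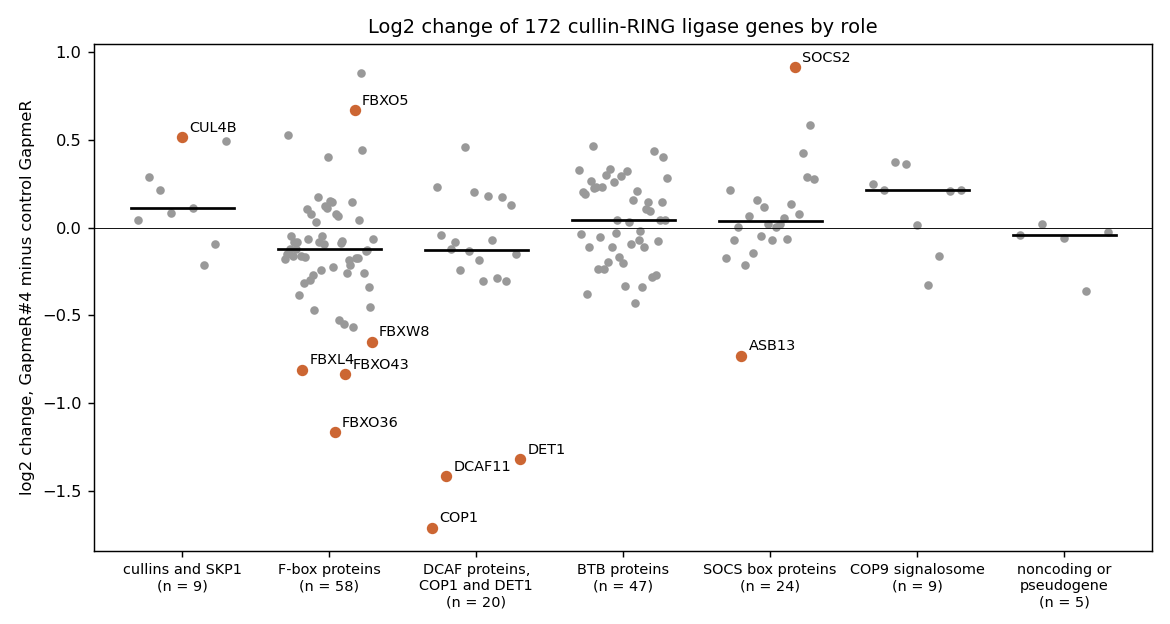
Log2 change of each of the 172 CRL genes (points, in alphabetical order within a role), GapmeR#4 minus control GapmeR, by role. Orange points are the 11 genes at an adjusted p under 0.05 in limma and black lines are medians, which run from -0.13 for F-box proteins and for DCAF proteins with COP1 and DET1 to 0.21 for the COP9 signalosome.

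COP1, added through its change in these arrays, had the largest change of all members. Its log2 signal was 7.83, 7.89 and 7.99 on the control GapmeR arrays and 6.41, 6.07 and 6.10 on the GapmeR#4 arrays. The highest GapmeR#4 array was thus more than 1 log2 unit below the lowest control array. The change of -1.71 (SE 0.13, 95% confidence interval -2.00 to -1.41, n = 3 per group) is a 3.27-fold fall, with an adjusted p of 0.0071 in limma. The exact permutation test over the 20 assignments of 6 arrays gave p = 0.1, the smallest it allows with 3 arrays per group, and gave the same value for all 11 genes. With any 1 array left out the change stayed between -1.82 and -1.65 and the adjusted p between 0.0221 and 0.0426.

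DET1, the partner of COP1 in the CUL4 ligase, fell with it. Its log2 signal was 6.39, 6.26 and 6.64 with control GapmeR and 5.49, 5.12 and 4.72 with GapmeR#4. All GapmeR#4 arrays were below all control arrays, but they lay further from each other than those of COP1. The change was -1.32 (SE 0.21, limma, adjusted p = 0.0274, n = 3 per group), or 2.49-fold. Its call was kept with GapmeR#4 replicate 1 left out, at an adjusted p of 0.0382, and lost with any other array left out, where the adjusted p was up to 0.0898.

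DCAF11 is a WD-repeat receptor of the DDB1 and CUL4 ligases. The log2 signal was 6.75, 6.73 and 6.39 with control GapmeR and 5.44, 5.24 and 4.93 with GapmeR#4, and the groups were well apart. The fall was 2.67-fold, a change of -1.42 (SE 0.17, limma, adjusted p = 0.0128). Leaving out control GapmeR replicate 1, control GapmeR replicate 2 or GapmeR#4 replicate 2 raised the adjusted p to 0.0551, 0.0702 and 0.0505, and it stayed under 0.05 without any other single array.

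The promoters of the COP1 ligase genes and of DCAF11 are shown because these are the members with the largest changes in this branch, and that of CUL4B because it moved the other way. They come from RefSeq (GRCh38.p14) and run on the strand of the gene from 250 bases before its most upstream start to 50 bases after it, 300 bases each. Capitals mark matches to 1 of 7 motifs searched on both strands. These were the CCAAT box, spelled by its name, the GC box, spelled GGGCGG, the TATA box, spelled TATAAA, the E-box, spelled CACGTG, the AP-1 site, spelled TGANTCA, the ETS site, spelled CCGGAAG, and the YY1 core, spelled AAGATGG. Matches of different motifs did not overlap in these windows.
COP1 (chr1:176207237-176207536, minus strand): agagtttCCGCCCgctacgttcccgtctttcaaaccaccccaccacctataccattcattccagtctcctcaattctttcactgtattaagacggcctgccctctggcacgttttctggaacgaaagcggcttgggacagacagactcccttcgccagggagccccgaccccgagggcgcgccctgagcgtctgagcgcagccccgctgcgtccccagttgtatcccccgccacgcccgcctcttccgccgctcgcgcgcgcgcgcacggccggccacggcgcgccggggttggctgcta
DET1 (chr15:88546654-88546953, minus strand): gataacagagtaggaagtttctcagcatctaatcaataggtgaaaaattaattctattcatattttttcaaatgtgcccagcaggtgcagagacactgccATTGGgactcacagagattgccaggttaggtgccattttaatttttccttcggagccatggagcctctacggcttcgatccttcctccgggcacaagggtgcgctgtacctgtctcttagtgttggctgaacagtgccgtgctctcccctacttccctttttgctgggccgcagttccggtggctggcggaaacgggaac
DCAF11 (chr14:24114527-24114826, plus strand): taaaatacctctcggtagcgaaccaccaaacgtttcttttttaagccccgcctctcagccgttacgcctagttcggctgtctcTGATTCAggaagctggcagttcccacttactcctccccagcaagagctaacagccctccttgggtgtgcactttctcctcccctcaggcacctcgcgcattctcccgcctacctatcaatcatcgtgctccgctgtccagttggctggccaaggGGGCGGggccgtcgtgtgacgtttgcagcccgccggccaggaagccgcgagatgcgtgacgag
CUL4B (chrX:120575483-120575782, minus strand): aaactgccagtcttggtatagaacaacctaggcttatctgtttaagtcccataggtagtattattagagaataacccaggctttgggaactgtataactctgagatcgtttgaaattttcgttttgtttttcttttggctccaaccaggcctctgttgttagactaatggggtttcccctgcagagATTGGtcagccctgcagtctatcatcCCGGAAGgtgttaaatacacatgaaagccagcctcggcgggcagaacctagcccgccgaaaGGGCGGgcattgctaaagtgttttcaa

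The COP1 window is 65.7% G and C and holds 1 GC box, that of DET1 is 49.7% and holds 1 CCAAT box, that of DCAF11 is 59.3% and holds 1 GC box and 1 AP-1 site, and that of CUL4B is 45.7% and holds 1 CCAAT box, 1 GC box and 1 ETS site. No motif is shared by all 4 windows. Promoters were matched for 135 of 172 members. A GC box stood in 61.5% of these and in 44.5% of all 27305 promoters, an ETS site in 20.7% against 10.6%, a CCAAT box in 29.6% against 35.7%, a TATA box in 8.15% against 12%, an AP-1 site in 4.44% against 7.72%, a YY1 core in 8.89% against 6.03%, and an E-box in 7.41% of both. The 135 are promoters of protein-coding genes, whereas the 27305 were not selected by biotype, so these shares compare unlike sets. Of the 9 genes that passed and had a promoter, 7 held a GC box (CUL4B and the 6 lower genes COP1, DCAF11, FBXO36, FBXL4, FBXW8 and ASB13), 4 an ETS site and 2 a CCAAT box. A match describes these letters and is not evidence of binding.

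Among the other 17 DCAF genes no change passed. DCAF5 had a change of -0.29 (limma, adjusted p = 0.182). DCAF13, a nucleolar protein, was at 0.46 (adjusted p = 0.192) and DCAF4 at -0.30 (adjusted p = 0.198), both named after their values were seen. These 17 genes ranged from -0.30 to 0.46.

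CUL4B, the scaffold paralog of CUL4A, rose. Its log2 signal was 9.11, 9.13 and 9.19 with control GapmeR and 9.64, 9.65 and 9.68 with GapmeR#4. The arrays of each group lay within 0.1 of each other and the groups were apart. The change was 0.52 (SE 0.09, limma, adjusted p = 0.039), or 1.43-fold, and the adjusted p lay between 0.0774 and 0.15 with 1 array left out. CUL4A had log2 signals of 9.39, 9.44 and 9.43 with control GapmeR and of 9.50, 9.46 and 9.55 with GapmeR#4, a change of 0.08 with a 95% confidence interval from -0.13 to 0.30 (adjusted p = 0.734). The difference between the paralogs was not tested.

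The other cullins did not pass. CUL2 had a change of 0.29 (limma, adjusted p = 0.257), CUL3 of 0.21 (adjusted p = 0.453), CUL5 of 0.11 (adjusted p = 0.753) and CUL1 of 0.04 (adjusted p = 0.894). CUL7, the scaffold used by FBXW8, was at -0.21 (adjusted p = 0.542), and CUL9 at -0.09 (adjusted p = 0.691). SKP1, the adaptor between CUL1 and F-box proteins, had log2 signals of 4.51, 4.65 and 4.69 with control GapmeR and of 5.27, 5.02 and 5.04 with GapmeR#4. Its groups did not overlap, and its change of 0.49 did not pass over all transcript clusters (adjusted p = 0.0775).

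The genes of COP1 substrates and adaptors were read next to the ligase. Of 10 on this list, 8 were measured, 1 fell and 1 rose (12.5% each, against 2.57% and 1.49% of named genes). TRIB1, the pseudokinase scaffold that brings COP1 to C/EBP alpha, had log2 signals of 6.75, 6.64 and 6.41 with control GapmeR and of 7.19, 7.32 and 7.41 with GapmeR#4, with no overlap. Its change was 0.71 (SE 0.13, limma, adjusted p = 0.0392). ETV4, an ETS factor degraded through COP1, had log2 signals of 6.52, 6.32 and 6.16 with control GapmeR and of 5.77, 5.65 and 5.63 with GapmeR#4, with all GapmeR#4 arrays below the controls. Its change was -0.65 (SE 0.12, adjusted p = 0.0451). With any 1 array left out neither gene passed, at adjusted p-values of at least 0.0777 for TRIB1 and 0.0622 for ETV4.

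The other 6 genes of that list did not pass, and are named here after their values were seen. ETV5 was at -0.56 (limma, adjusted p = 0.0989), the AP-1 subunit JUN at 0.42 (adjusted p = 0.118), and the pseudokinase TRIB2 at -0.36 (adjusted p = 0.135). In all of these the groups did not overlap, and TRIB2 differed in sign from its paralog TRIB1. TRIB2 has 2 transcript clusters, of which only the brighter is given here. ETV1 was at -0.16, ETS1 at -0.07 and ETS2 at 0.11, with adjusted p-values of 0.528, 0.772 and 0.662. These are RNA levels of genes whose proteins COP1 ligases act on, and the proteins were not measured.

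**Figure D3:**
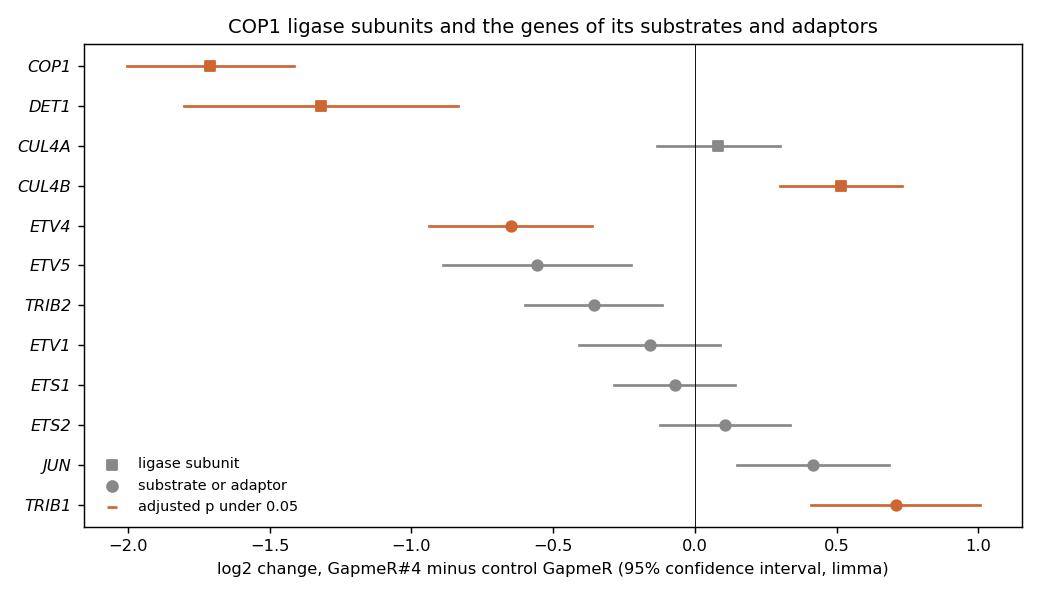
Log2 change (GapmeR#4 minus control GapmeR) of COP1, DET1, CUL4A and CUL4B (squares) and of 8 genes of COP1 substrates and adaptors (circles). Lines are 95% confidence intervals from limma without adjustment and orange marks an adjusted p under 0.05, reached by COP1, DET1 and ETV4 below 0 and by CUL4B and TRIB1 above 0.

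The 58 F-box genes had 4 that fell and 1 that rose (6.90% and 1.72%, against 2.57% and 1.49% of named genes). Their median change was -0.13, and 41 (70.7%) were at a negative change, against 49.6% of named genes. These shares were not tested. F-box proteins are the substrate receptors of CUL1 ligases, and FBXO36 had the largest change among them. Its log2 signal was 5.23, 5.05 and 5.05 with control GapmeR and 3.96, 3.93 and 3.94 with GapmeR#4, tight within both groups and more than 1 log2 unit apart. This is a 2.25-fold fall, or -1.17 (SE 0.10, limma, adjusted p = 0.00733). It remained under 0.05 with any 1 array left out (adjusted p between 0.0314 and 0.0476), as did COP1 and no other member. On 2 of the GapmeR#4 arrays its signal was below the array median.

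FBXL4 is an F-box protein of mitochondria that restrains mitophagy, and its loss in humans causes depletion of mitochondrial DNA. Its log2 signal was 8.01, 7.98 and 8.01 with control GapmeR and 7.32, 7.28 and 6.97 with GapmeR#4, where 1 array was lower than the other two. It fell 1.75-fold (-0.81, SE 0.12, limma, adjusted p = 0.025). FBXW8, the F-box receptor that works with CUL7, had log2 signals of 6.66, 6.52 and 6.53 with control GapmeR and of 5.87, 5.95 and 5.94 with GapmeR#4. It fell 1.57-fold (-0.65, SE 0.10, adjusted p = 0.0252). The groups of both genes were apart, and their adjusted p reached 0.0568 to 0.102 for FBXL4 and 0.0638 to 0.0994 for FBXW8 when 1 array was left out.

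The paralogs FBXO5 and FBXO43, also called EMI1 and EMI2, inhibit the anaphase-promoting complex, another ubiquitin ligase, in the mitotic cycle and in meiosis. FBXO5 rose, from log2 signals of 6.001, 6.172 and 6.305 with control GapmeR to 6.935, 6.829 and 6.719 with GapmeR#4. The change was 0.67 (SE 0.12, limma, adjusted p = 0.0397), or 1.59-fold. FBXO43 fell, from 3.80, 4.24 and 3.85 to 3.34, 3.10 and 2.95, a change of -0.83 (SE 0.16, adjusted p = 0.0477). Its signal was below the array median on 5 of 6 arrays. With 1 array left out the adjusted p was 0.0649 to 0.139 for FBXO5 and 0.0799 to 0.142 for FBXO43, and the difference between the paralogs was not tested.

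Other F-box genes did not pass and, apart from BTRC, are named after their values were seen. FBXO42 was next to the threshold, with log2 signals of 6.03, 5.98 and 5.80 with control GapmeR and of 5.44, 5.29 and 5.43 with GapmeR#4 (-0.55, limma, adjusted p = 0.0524). FBXL13 was at 0.53 (adjusted p = 0.0965) and FBXO16 at -0.47 (adjusted p = 0.106). BTRC, the receptor for beta-catenin and I-kappa-B, was at -0.18 (adjusted p = 0.541), and its paralog FBXW11 at -0.26 (adjusted p = 0.251).

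BTB proteins combine adaptor and receptor for CUL3 in 1 chain, and none of the 47 measured genes passed, with 4 lower and 7 higher at an unadjusted p under 0.05, which is 23.4% where 23.1% of named genes passed in either direction. Their changes ran from -0.43 to 0.47, with a median of 0.04. KLHL42 had the smallest p, with log2 signals of 5.66, 5.92 and 5.71 with control GapmeR and of 6.16, 6.32 and 6.13 with GapmeR#4 (0.44, limma, adjusted p = 0.109). The groups did not overlap there, but the other 2 transcript clusters of KLHL42 were at -0.06 and 0.07.

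KBTBD7 had a change of 0.47 (limma, adjusted p = 0.137), KLHL9 of 0.40 (adjusted p = 0.141) and KLHL15 of 0.33 (adjusted p = 0.14). KLHL9 is used by CUL3 in mitosis together with KLHL13, which was at 0.30 (adjusted p = 0.255), and KBTBD7 works together with KBTBD6, at 0.27 (adjusted p = 0.238). KLHL13 and KBTBD6 were named after their values were seen, and in all 4 genes the groups did not overlap. KEAP1, the sensor that holds the oxidative stress factor NRF2 down, was at 0.23 (adjusted p = 0.334). SPOP was at 0.04 with a 95% confidence interval from -0.18 to 0.27 (adjusted p = 0.869), and its paralog SPOPL, named after its values were seen, at 0.28 (adjusted p = 0.348).

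SOCS box proteins are receptors of CUL5 ligases. Of 24 genes 1 fell and 1 rose (4.17% each, against 2.57% and 1.49% of named genes). SOCS2, a feedback inhibitor of growth hormone and STAT5 signalling, had log2 signals of 4.61, 4.35 and 4.05 with control GapmeR and of 5.26, 5.03 and 5.47 with GapmeR#4. Both groups were wide, and they did not overlap. The change was 0.91 (SE 0.18, limma, adjusted p = 0.0486), or 1.88-fold, the largest rise among the members. With 1 array left out the adjusted p was 0.0744 to 0.155.

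ASB13 pairs ankyrin repeats with a SOCS box. Signals of 5.97, 5.85 and 5.85 with control GapmeR and of 5.23, 5.21 and 5.04 with GapmeR#4 were measured on the log2 scale. It fell 1.66-fold (-0.73, SE 0.10, limma, adjusted p = 0.0231), with the groups apart and an adjusted p of 0.0593 to 0.092 when 1 array was left out. The other SOCS genes with small p-values were at positive changes. SOCS6 had log2 signals of 7.19, 7.50 and 7.64 with control GapmeR and of 8.06, 8.01 and 8.02 with GapmeR#4 (0.58, adjusted p = 0.0769), and SOCS4 was at 0.42 (adjusted p = 0.131). SOCS7 and SOCS5, named after their values were seen, were at 0.28 and 0.29, with adjusted p-values of 0.192 and 0.208, and the groups of all 4 genes did not overlap.

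Another list held genes whose products SOCS proteins act on (JAK, STAT and receptor genes, IRS1, IRS2 and PTK2). Of 12 measured, 0 rose and 1 fell (8.33%, against 2.57% of named genes). This was STAT5B, a transcription factor of cytokine signalling, with log2 signals of 6.44, 6.33 and 6.25 with control GapmeR and of 5.66, 5.85 and 5.54 with GapmeR#4. All GapmeR#4 arrays were below the controls, with a change of -0.66 (SE 0.12, limma, adjusted p = 0.0412, and at least 0.0715 with 1 array left out). PTK2, which encodes the focal adhesion kinase, was at -0.47 (adjusted p = 0.0862).

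The COP9 signalosome, which takes NEDD8 off cullins, had 7 of 9 subunit genes at a positive change and a median of 0.21, and no subunit passed. A negative change was found for 22.2% of the subunits, against 49.6% of named genes, and these shares were not tested. COPS4 had log2 signals of 7.85, 8.06 and 8.07 with control GapmeR and of 8.42, 8.31 and 8.36 with GapmeR#4 (0.38, limma, adjusted p = 0.128). COPS5, the catalytic subunit, was at 0.36 (adjusted p = 0.201) and COPS9 at 0.21 (adjusted p = 0.307). The groups of these 3 genes did not overlap, as for 5 subunits in all (55.6%), against 32.3% of named genes. COPS7A was at -0.33 (adjusted p = 0.328) and its paralog COPS7B, named after its values were seen, at -0.16 (adjusted p = 0.506), and both overlapped. On the other side of this cycle, 8 of 18 genes of NEDD8 attachment and cullin exchange were measured and none passed. The smallest p-values there belonged to SENP8, which processes NEDD8, at -0.29 (adjusted p = 0.228) and COMMD1 at -0.27 (adjusted p = 0.248). Of 12 genes of ubiquitin-conjugating enzymes and elongins, 4 were measured and none passed, with UBE2D4 at -0.34 (adjusted p = 0.125) and UBE2R2 at 0.22 (adjusted p = 0.317).

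Receptors whose symbols lie outside the rule were read in the same way. Of 35 on this list 32 were measured, 3 fell and 1 rose (9.4% and 3.1%, against 2.57% and 1.49% of named genes). ZER1, a CUL2 receptor for proteins with an N-terminal glycine, had log2 signals of 7.67, 7.49 and 7.34 with control GapmeR and of 6.61, 6.66 and 6.45 with GapmeR#4, well apart, a change of -0.92 (SE 0.12, limma, adjusted p = 0.0191). KLHDC10, a CUL2 receptor that reads C-terminal ends, had log2 signals of 8.70, 8.71 and 8.69 with control GapmeR and of 8.10, 7.84 and 7.65 with GapmeR#4, a change of -0.84 (SE 0.13, adjusted p = 0.0285). The control arrays of KLHDC10 were nearly equal and its GapmeR#4 arrays spread below them.

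FEM1C, also a CUL2 receptor of C-terminal ends, rose, with log2 signals of 7.80, 7.74 and 7.82 with control GapmeR and of 8.52, 8.44 and 8.40 with GapmeR#4 (0.67, SE 0.09, limma, adjusted p = 0.0222). WDTC1, a further DDB1 and CUL4 receptor, had log2 signals of 6.97, 6.77 and 6.53 with control GapmeR and of 5.89, 6.13 and 6.05 with GapmeR#4 (-0.73, SE 0.14, adjusted p = 0.0478). WDTC1 has 2 transcript clusters, and only the brighter is given here. The groups of all 4 receptors did not overlap, and 3 of these 4 belong to CUL2, whose own change did not pass. With 1 array left out ZER1 passed only without control GapmeR replicate 3 (adjusted p = 0.0387) and KLHDC10 only without GapmeR#4 replicate 1 (adjusted p = 0.0383), while FEM1C and WDTC1 did not pass (adjusted p of at least 0.0585 and 0.0573). Other CUL2 receptors on the list, chosen after their values were seen, did not pass: KLHDC3 was at -0.30 (adjusted p = 0.39), and KLHDC2, ZYG11B, APPBP2, LRR1, FEM1A and FEM1B lay between -0.14 and 0.06.

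Genes of proteins that CRLs degrade, and genes those proteins regulate, were read in 3 further lists. Of 13 cell cycle substrates 9 were measured and none passed. CDC25A, the phosphatase that activates cyclin-dependent kinases, had log2 signals of 6.52, 6.35 and 6.52 with control GapmeR and of 6.93, 6.96 and 7.11 with GapmeR#4 (0.53, limma, adjusted p = 0.0528), with no overlap, and MYC was at 0.44 (adjusted p = 0.13). Of 16 genes of NRF2 and its targets, which KEAP1 restrains, 7 were measured and none passed, with TXNRD1 at 0.38 (adjusted p = 0.13) and TALDO1 at -0.23 (adjusted p = 0.298). Of 16 genes of hypoxia-inducible factors and their targets, which VHL ligases restrain, 10 were measured and none passed, with ADM at 0.51 (adjusted p = 0.137) and EGLN3 at -0.45 (adjusted p = 0.238). Over all 8 lists, 90 of 135 genes were measured. Of these, 5 fell (5.56%) and 2 rose (2.22%), against 2.57% and 1.49% of named genes, and the shares were not tested.

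Only 6 members had more than 1 transcript cluster. The brightest cluster was used, and none of the 13 clusters of these genes passed. The sign differed between clusters for KLHL42 and for ASB1, FBXL18 and FBXO22, which were named after their values were seen. ASB1 was at -0.17 in the cluster used and at 0.46 in the other, FBXL18 at -0.12 and 0.30, and FBXO22 at -0.08 and 0.10. Among all members, 32 were below the array median on all 6 arrays, and for these the arrays give little on a change. Of the 5 pseudogenes and non-coding RNAs none passed, with changes from -0.36 to 0.02.

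**Figure D4:**
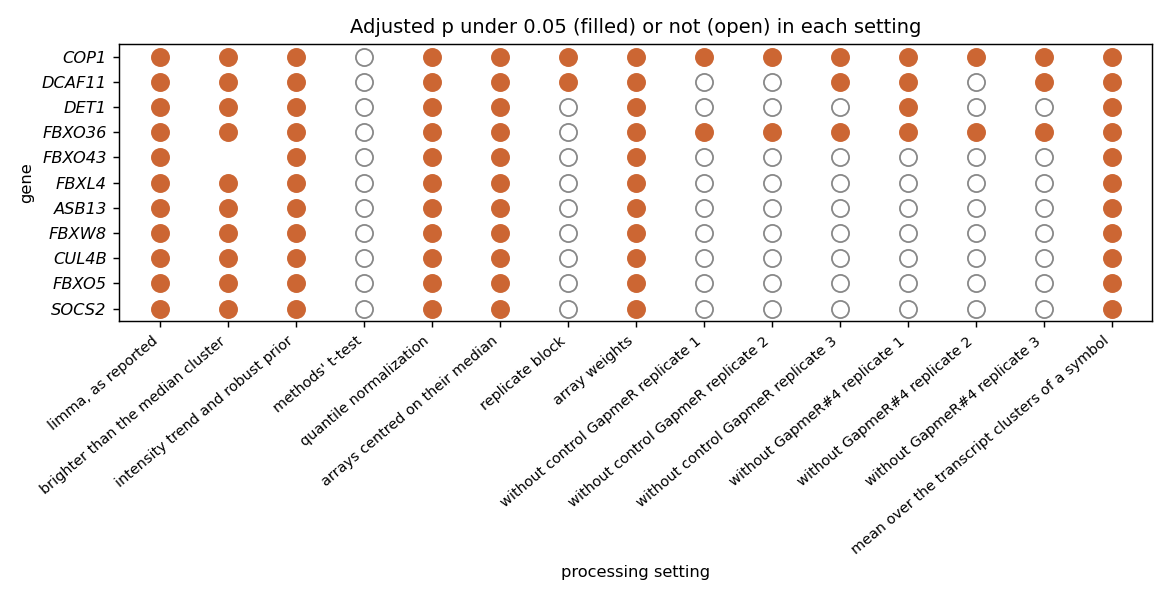
Whether each of the 11 genes had an adjusted p under 0.05 (filled) or not (open) as reported from limma and in 14 other settings. COP1 and FBXO36 are filled with any 1 array left out, COP1 and DCAF11 with the replicate number as a block, and none with the methods' t-test. FBXO43 has no point among the transcript clusters brighter than the median one, as it is not among them.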

How the data were processed

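Total RNA was hybridised to 6 Affymetrix Human Gene 2.0 ST arrays, 3 with control GapmeR and 3 with GapmeR#4, grouped by the submitters' labels. The authors deposited 1 log2 signal per transcript cluster and array, made with Affymetrix Expression Console per the submitters' processing notes. The sources used here give neither its version, the normalization nor the genome build. The values were used as deposited, without a filter. The test was limma 3.58.1, run in R 4.3.3 on 53617 transcript clusters (2 groups, 2-sided), with Benjamini-Hochberg adjustment over the whole table. Confidence intervals are not adjusted. The number of arrays limits the precision.

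Members were counted once by symbol, at the transcript cluster with the highest mean over the 6 arrays. Biotypes were taken from a RefSeq gene table by gene identifier, and for COP1 by symbol, and all 172 members matched it. Promoters were taken from RefSeq by symbol. Partner lists were written from general knowledge of the ligases. The members and lists were chosen with earlier results of these data known. Named are COP1, NRAD1, every member at an adjusted p under 0.05, the 4 members with the smallest p in each of the 6 protein-coding roles, the cullins, SKP1, KEAP1, SPOP and BTRC, and in each partner list the called genes and the 2 with the smallest p. Other genes are said to be named after their values were seen.

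Alternatives were the transcript clusters brighter than the median one, an intensity trend with a robust prior, the methods' t-test, quantile normalization, centring on the array median, array weights, a block for the replicate number, leaving out each array, and averaging the transcript clusters of a symbol. Counts that leave out COP1 were an alternative chosen after seeing the data. The limma scripts were tested on simulated data.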

Additional observations from a re-analysis of the deposited data

How the results depend on the processing

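The 8 lower and 3 higher CRL genes became 9 and 7 of 138 among transcript clusters brighter than the median one. These are 6.52% and 5.07%, against 7.44% and 5.33% of named genes. With the methods' t-test they became 0 and 0, against 0.00672% and 0.0134% of named genes. At an unadjusted p under 0.05 this test gave 29 lower and 25 higher, or 16.9% and 14.5%, against 12.6% and 11.4% of named genes. With 1 array left out, where fewer arrays remain, 2 to 4 were lower and 0 higher. The lower share was then 1.16% to 2.33% of members and 0.0672% to 0.82% of named genes. COP1, added through its change in these arrays, was among the lower members each time. Of named genes, 0.0672% to 0.578% were higher there. With the t-test COP1 was at -1.71 and an adjusted p of 0.0663. Same-numbered samples shared no clear deviation from their group means (correlations of -0.0645, -0.00476 and -0.0179), which does not settle whether the cultures were paired. With the replicate number as a block 2 members, COP1 (limma, adjusted p = 0.0444) and DCAF11, were lower and 0 higher. These are 1.16% and 0%, against 0.121% and 0.0605% of named genes. The 1.16% also counts COP1, and no share without COP1 was computed in these settings. At an unadjusted p under 0.05, 21 were lower and 15 higher (12.2% and 8.72%, against 10.4% and 8.06% of named genes). The 5 lower and 2 higher of 90 partner genes became 8 and 4 of 88 among the brighter clusters. There 7.44% of named genes were lower and 5.33% higher, and the partner counts were not tested against these shares. The partner counts were 0 and 0 with the t-test and with the replicate block. Quantile normalization gave 3 lower, where 2.49% of named genes were lower. The intensity trend and array weights each gave 4 higher, where 3.31% and 2.22% of named genes were higher. With the mean over transcript clusters 4 of 90 partner genes were lower, where 2.48% of named genes were lower. With 1 array left out 0 to 1 were lower and 0 higher. The members' median change was -0.0501 to -0.0156 with 1 array left out and -0.0334 with the mean over transcript clusters. CUL1 ranged from -0.0313, without control GapmeR replicate 1, to 0.104. No other change of a followed gene reversed. Apart from leaving out arrays, the causes were not tested. Low signal limits the 32 members below the array median on all arrays.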
